A study of Mus musculus with 6 samples.

Results

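A set of 10 genes that govern the G1 phase of the cell cycle was examined in CD8+ T cells: the D-type cyclins Ccnd2 and Ccnd3, the E-type cyclin Ccne1, the kinases Cdk4, Cdk6 and Cdk2, the kinase inhibitors Cdkn2c, Cdkn2d and Cdkn1b, and Cables1, an adaptor that links cyclin-dependent kinases to other kinases. They were taken by symbol from the 55487 genes in the deposited tables, and all 10 were found and passed the expression filter. These cytotoxic lymphocytes, from C57BL/6 mice, were kept for 48 h in 5 mM itaconate, which activated macrophages make from a Krebs cycle intermediate, or in NaCl, the control treatment. RNA-seq libraries numbered 3 in each group. The labels give no genetic change, age, sex, activating stimulus or source organ, and are silent on whether replicates are separate animals or cultures. The p-values therefore describe only how these libraries varied, and that variation may be technical.

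In a resting T cell the retinoblastoma proteins bind E2F transcription factors and hold back the genes needed to copy DNA. Mitogens and cytokines raise the D-type cyclins, which pair with CDK4 or CDK6 and begin to phosphorylate the retinoblastoma proteins; E-type cyclins with CDK2 complete this step. INK4 inhibitors, among them the products of Cdkn2c and Cdkn2d, bind CDK4 and CDK6, while KIP1, the product of Cdkn1b, binds cyclin-CDK2 complexes. T cells pass this checkpoint quickly after activation, and use mainly the D2 and D3 cyclins and CDK6 or CDK4 to do so.

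The libraries held between 18280217 and 31643408 expected counts. Control replicate 1 stood apart in how far effective length fell short of gene length, 258.6 bases against 229.2 to 239.1 in the others, and in its share of mitochondrially encoded counts, 1.94% against 1.25% to 1.55%. Of 6 CD8 T cell markers, Cd8a rose and the other 5 did not pass the test, and their summed level was 1395 to 1481 CPM in control libraries and 1625 to 1633 CPM in itaconate libraries (CPM, counts relative to the scaled library total). Markers of B cells summed to 11.9 to 18.5 CPM in control libraries and 9.99 to 21.5 CPM in itaconate libraries, those of CD4 cells to 5.64 to 9.49 and 7.43 to 10.8 CPM, and those of dendritic cells to 1.59 to 2.86 and 1.66 to 3.22 CPM, with Siglech at 0 in every library. Gamma-delta markers, of which 2 of 4 were found, summed to 1.30 to 1.55 CPM in control libraries and 1.39 to 1.73 CPM in itaconate libraries, and erythroid markers to 0.890 to 1.30 and 0.172 to 4.27 CPM. The 4 NK cell markers summed to 96.3 to 108 and 110 to 138 CPM, nearly all of it Eomes, which CD8 T cells also express and which rose. The NK cell genes Ncr1, Klrb1c and Klra8 were each at or below 0.6001 CPM. Across the transcriptome, edgeR's quasi-likelihood test with Benjamini-Hochberg adjustment called 1487 of 12350 tested genes at an adjusted p under 0.05, which is 12.0%. That number was 726 without control replicate 2, 896 without itaconate replicate 2 and 835 without itaconate replicate 3. Of the calls, 55.5% were higher with itaconate, against 37.6% when limma was run on log2(TPM + 1). TPM is a level corrected for transcript length.

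Of the 10 genes, 2 were higher with itaconate (Cables1 and Ccnd3), 1 was lower (Ccnd2) and 7 did not pass. Over all tested genes 12.0% were called, and the 10 were chosen with earlier results of these data known. The median log2 fold change of the 10 was 0.01, beside 0.01 over all tested genes. Control and itaconate CPM were fully separated for 4 of the 10, the 3 called genes and Cdkn1b, where 31.2% of all tested genes had no overlap. Without control replicate 1 all 3 calls held, with log2 fold changes of 0.98 for Cables1, 0.27 for Ccnd3 and -0.21 for Ccnd2 (edgeR adjusted p 6.57e-06, 0.00268 and 0.0183). In bulk RNA a difference in the share of cells that express a gene and a difference in RNA per cell cannot be told apart.

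**Figure D1:**
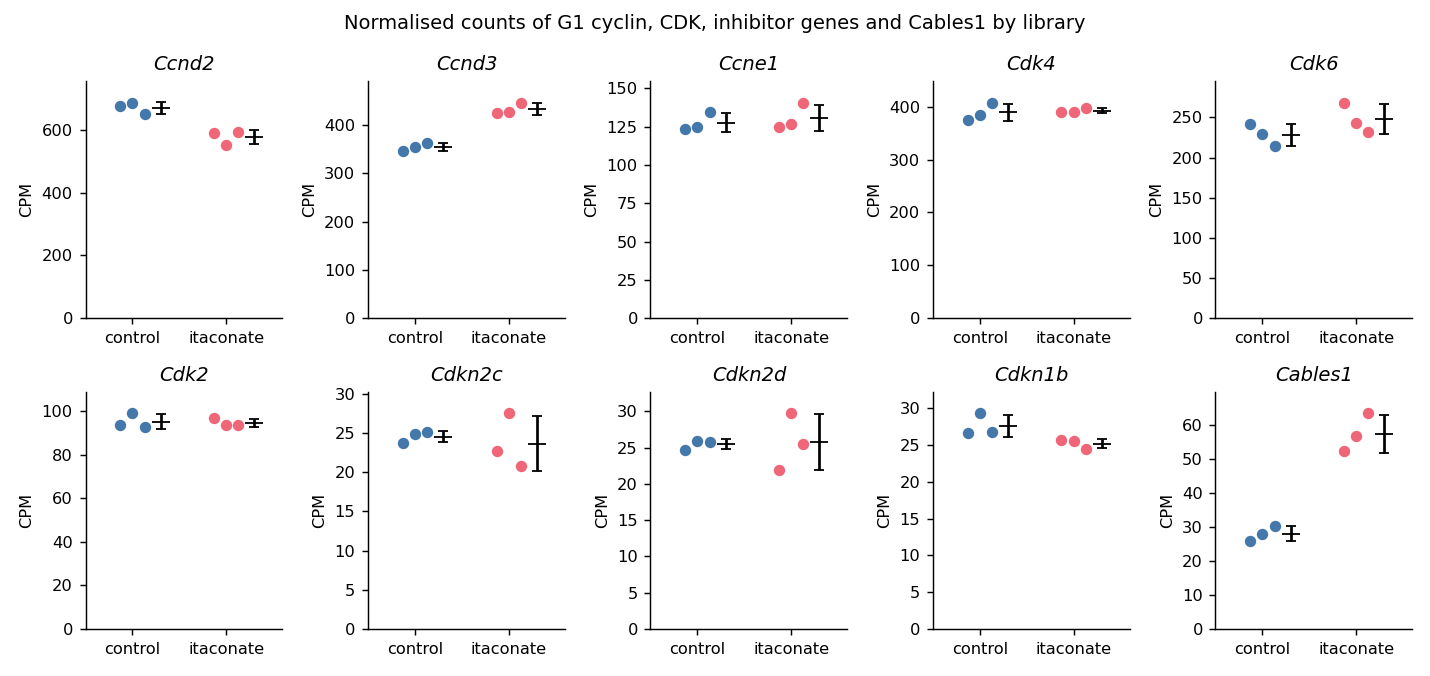
Normalised counts (CPM, vertical axes from 0) of the 10 genes in 3 control (blue) and 3 itaconate (red) libraries; black bars give the mean and SD of each group. The itaconate libraries lie above all control libraries for Cables1 and Ccnd3 and below them for Ccnd2 and Cdkn1b, and the groups overlap for the other 6 genes.

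Cables1 had the largest fold of the 10. Its product, named for being a substrate of CDK5 and ABL, also binds CDK2 and favours the inhibitory phosphorylation of CDKs. Its level was 25.852, 28.004 and 30.263 CPM in control replicates 1, 2 and 3 and 52.5, 56.8 and 63.6 CPM in the treated replicates 1, 2 and 3. Every itaconate library thus lay well above every control library, and the gap between the groups exceeded the range within either. The mean rose from 28.04 ± 2.21 to 57.6 ± 5.60 CPM (SD, n = 3), a fitted fold of 2.05 (95% interval 1.82 to 2.32; log2 fold change 1.04 ± 0.08, SE; edgeR adjusted p 4.30e-06). The call held in all 18 alternative analyses, with a log2 fold change from 0.913 to 1.102. The estimated length of its transcripts lay between 3322 and 3366 bases in all libraries, so the TPM gave a similar picture, 11.3 ± 0.646 in control and 22.2 ± 1.86 in itaconate libraries. Cables1 (ENSMUSG00000040957) is a protein-coding gene on chromosome 18 at 11839220 to 11945630 in GRCm38 (GENCODE M21).

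Gm6277, annotated as antisense to Cables1, was at 0.958 ± 0.177 CPM in control libraries and 1.75 ± 0.456 CPM in itaconate libraries (SD, n = 3) and did not pass (edgeR adjusted p 0.09997). Whether the counting used strand is not given in the sources used here, so reads of the overlapping pair may be exchanged, and the part of this in the Cables1 difference was not tested. Gm6277 had 23.6 to 26.5 expected counts in control libraries and 29.1 to 41.4 with itaconate. The summed level of 7 myeloid cell markers was 1.69 to 2.252 CPM in control libraries and 2.66 to 3.86 CPM in itaconate libraries, and its part in the Cables1 difference was not tested. The most abundant, Cd68, was at 1.63, 0.869 and 1.21 CPM in control replicates 1, 2 and 3 and at 1.19, 2.11 and 1.2 CPM with itaconate, and Lyz2 at 0.185, 0.434 and 0.666 CPM and at 1.68, 0.111 and 2.02 CPM. The defining myeloid markers Csf1r, Adgre1 and Itgam were each at or below 0.333 CPM in every library.

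The related gene Cables2 did not pass, at 28.8 ± 1.604 CPM in control libraries and 30.7 ± 1.83 CPM in itaconate libraries (fold 1.07, 95% interval 0.952 to 1.19). In control libraries the CPM of Cables1 and Cables2 were thus close, and in itaconate libraries Cables1 was the higher, on a scale that is not corrected for length. Of the partners that gave Cables1 its name, Cdk5 was at 10.2 ± 0.0796 CPM in control libraries and 11.6 ± 0.827 CPM (edgeR adjusted p 0.287). The tyrosine kinase gene Abl1 was at 65.7 ± 3.32 and 74.97 ± 3.07 CPM, just outside the threshold (edgeR adjusted p 0.0519), and passed in 4 of 18 alternative analyses, among them that without control replicate 1 (0.0429). Wee1, the kinase that places the inhibitory phosphate on CDKs, did not pass, at 33.5 ± 1.69 and 32.2 ± 0.904 CPM. Of the 6 genes listed as Cables partners and relatives, 4 were tested and 0 passed the edgeR test, and DESeq2 and limma-voom also called 0. Abl1 alone had an unadjusted edgeR p under 0.05, as had at least 12.0% of all tested genes.

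Profiles over the 6 libraries were compared with that of Cables1 by the root mean square difference of log2 CPM from the control mean. Among tested genes with a unique symbol that is not a predicted name, the nearest were Prrt1 (0.0606), Nt5e (0.0905), Jdp2 (0.101), Rasgrp2 (0.134) and Fam129b (0.141). Nt5e encodes the ectonucleotidase CD73, Jdp2 a leucine-zipper repressor of AP-1 sites, and Rasgrp2 an exchange factor that activates the small GTPase RAP1. Rasgrp2 was the most abundant of the 5, at 36.5 ± 1.56 CPM in control libraries and 71.1 ± 5.53 CPM in itaconate libraries (log2 fold change 0.96 ± 0.07, edgeR adjusted p 4.03e-06). Nt5e was at 7.61 ± 0.748 and 16.6 ± 1.24 CPM. Fam129b was the least abundant of the 5, at 2.54 ± 0.0185 and 4.88 ± 0.383 CPM. Its call held in 13 of 18 alternative analyses, with a log2 fold change from 0.399 to 0.9725. The call was lost with limma on TPM and when transcript lengths were modelled. The likeness is a description over 6 libraries in 2 groups and was chosen by that measure.

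**Figure D2:**
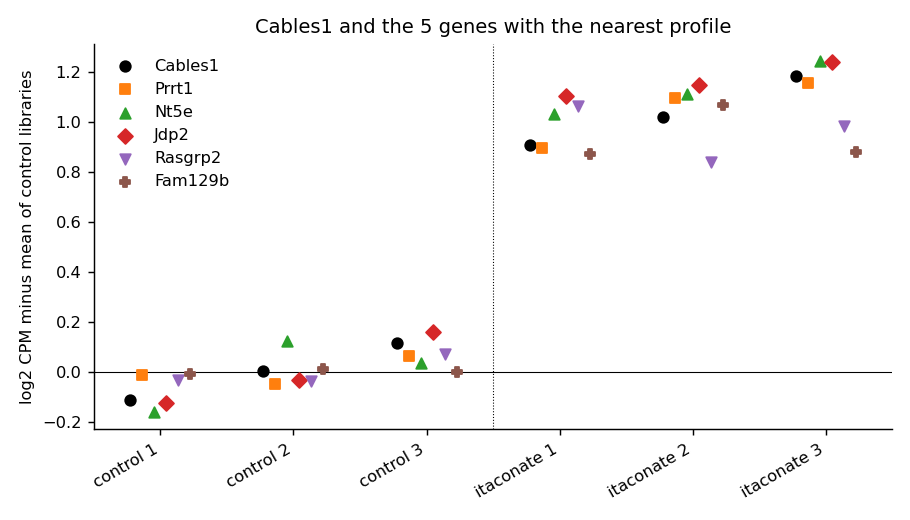
Log2 CPM minus the mean of the control libraries (vertical axis) in each library (horizontal axis) for Cables1 and the 5 genes with the nearest profile. Genes with a predicted name were left out. All 6 genes are near 0 in the control libraries and near 1 in the itaconate libraries.

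The D-type cyclins moved in opposite directions. Ccnd3, cyclin D3, rose, with 346.7, 354.6 and 363.4 CPM in control replicates 1 to 3 and 425.7, 426.9 and 446.6 CPM in those given itaconate, in the same order. All itaconate libraries exceeded all control libraries, and the range within each group was narrow. The fitted fold was 1.22 (95% interval 1.14 to 1.30; edgeR adjusted p 0.000975), and the call held without any 1 library (0.00209 to 0.0129). It was not made by limma on log2(TPM + 1), where the log2 fold change was 0.21 instead of 0.29 (adjusted p 0.0607). Ccnd3 (ENSMUSG00000034165) lies on chromosome 17 at 47505051 to 47599691 and overlaps Bysl, a ribosome biogenesis gene on the other strand, which was at 136 ± 9.66 and 132 ± 4.60 CPM and did not pass (edgeR adjusted p 0.659).

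Ccnd2, cyclin D2, fell. It was at 675.9, 687.3 and 650.3 CPM in control replicates 1, 2 and 3 and at 589.6, 551.2 and 593.4 CPM in the treated replicates 1, 2 and 3, again without overlap. The fitted fold was 0.861 (95% interval 0.803 to 0.924; log2 fold change -0.22 ± 0.05, SE; edgeR adjusted p 0.00900). Leaving out control replicate 2 ended the call (edgeR adjusted p 0.0541), as did limma on log2(TPM + 1) (0.0944, log2 fold change -0.37) and modelling effective transcript lengths in edgeR (0.0531, log2 fold change -0.31). In TPM, Ccnd2 was at 170, 188 and 152 in control and 144, 116 and 134 in itaconate libraries, and its estimated transcript length ran from 4876 to 5425 bases in control libraries and from 5300 to 5798 bases with itaconate. Ccnd2 (ENSMUSG00000000184) lies on chromosome 6 at 127125162 to 127152193.

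With both changes together the sum of the D-type cyclins stayed within the spread of the libraries while its makeup differed. Summed over Ccnd1, Ccnd2 and Ccnd3, the level was 440 ± 25.9 TPM in control and 443 ± 22.1 TPM in itaconate libraries (SD, n = 3), with overlap. Ccnd2 made up 38.4%, 40.5% and 36.8% of this sum in control replicates 1, 2 and 3 and 31.3%, 27.7% and 29.9% in the treated replicates 1, 2 and 3, a difference of -8.96 percentage points between the means. On CPM, which does not correct for length, its share was 65.4% ± 1.09 and 57.1% ± 0.855, so the level of the share depended on the scale and the difference was similar. Ccnd1, the D-type cyclin of many non-lymphoid cells, was nearly absent, with rounded counts between 1 and 18 per library, and was not tested.

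**Figure D3:**
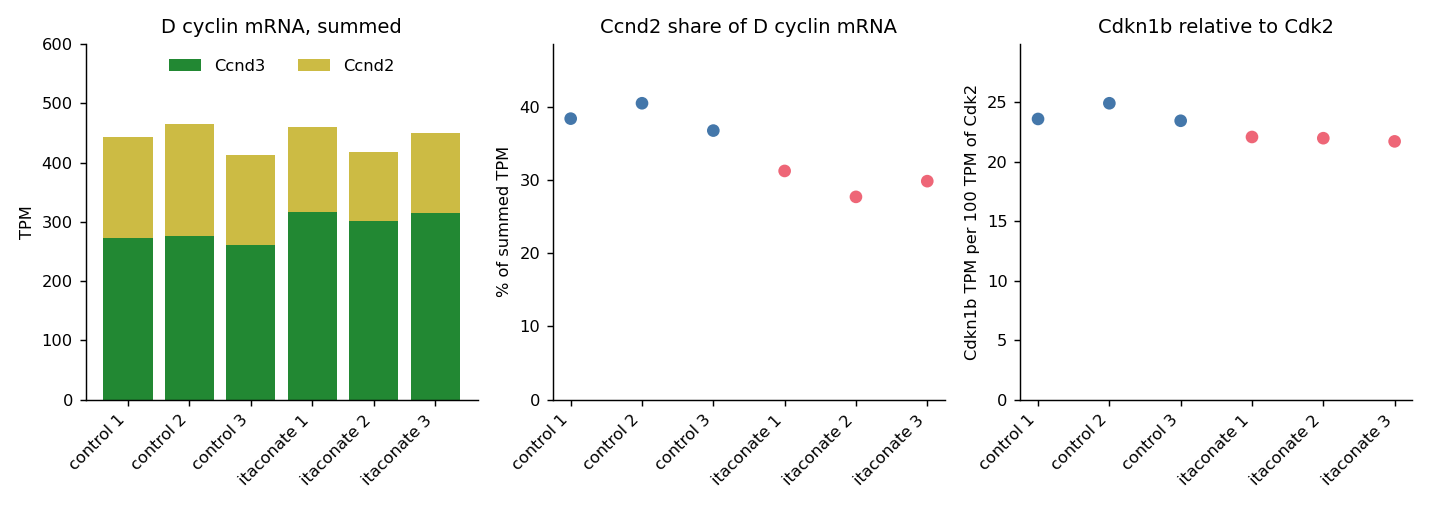
Left, TPM of Ccnd3 and Ccnd2 stacked per library; middle, Ccnd2 as a percentage of the summed TPM of the D-type cyclins; right, TPM of Cdkn1b per 100 TPM of Cdk2, for control (blue) and itaconate (red) libraries. The stacked bars end between about 413 and 464 TPM in all 6 libraries, while the Ccnd2 share is 36.8% to 40.5% in the controls and 27.7% to 31.3% with itaconate.

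Stretches upstream of transcription starts are shown for the cyclin that rose and for the kinase with the highest TPM, which binds it. They come from RefSeq (GRCm38.p6, plus strand, 250 bases before the start), and 8 of the 10 genes matched an entry whose sequence was used. Cables1, whose chromosome was left out, and Ccnd2, which had no entry, were not searched. Capitals mark CACGTG (an E-box, the core bound by MYC and related factors) and TGTTTAC (a forkhead motif), searched on both strands.
Cdk4, chr10:127063285-127063534: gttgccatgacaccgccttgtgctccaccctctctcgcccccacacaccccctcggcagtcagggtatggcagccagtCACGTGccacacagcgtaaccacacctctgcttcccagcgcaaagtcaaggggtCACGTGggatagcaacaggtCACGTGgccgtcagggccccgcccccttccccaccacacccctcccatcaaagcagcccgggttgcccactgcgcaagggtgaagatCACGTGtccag
Ccnd3, chr17:47504801-47505050: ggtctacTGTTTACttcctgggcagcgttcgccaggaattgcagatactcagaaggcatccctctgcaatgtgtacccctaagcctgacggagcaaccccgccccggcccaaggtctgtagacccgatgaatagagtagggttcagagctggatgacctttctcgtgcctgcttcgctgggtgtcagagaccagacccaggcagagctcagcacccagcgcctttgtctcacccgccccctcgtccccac
The Cdk4 stretch held 4 copies of CACGTG, and Cdk6 held 1. At least 1 copy was in 6.02% of 32851 such windows, and the share with 4 was not counted. The motifs were chosen after the sequences were seen, so these shares cannot mark a match as unusual. The Ccnd3 stretch held 1 copy of TGTTTAC, found in 3.17% of windows; a second Ccnd3 start, 88416 bases downstream, held neither motif. The E2F motifs TTTCGCGC and TTTGGCGC, 1 or both of which are in 0.654% of windows, were in none of the 10 windows searched. These are matches of letters and were not linked to any measured binding, and the gene-level values do not say which Ccnd3 start was used.

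The kinases did not pass. Cdk4, the D-cyclin partner with the highest TPM of all 10 genes, was at 374.7, 384.7 and 407.6 CPM in control replicates 1 to 3 and at 389.9, 390.0 and 397.3 CPM in the treated replicates 1 to 3. The itaconate values fell inside the control range, and the fitted fold of 1.01 had a 95% interval of 0.942 to 1.08. Cdk4 overlaps Tspan31 on the other strand (42.8 ± 1.31 and 42.4 ± 2.05 CPM), and its estimated transcript length was 1365 bases in control replicate 1 against 1149 to 1190 bases in the other libraries. Cdk6, the second D-cyclin kinase, was at 242.3, 228.7 and 214.7 CPM in control libraries and 268.4, 243.0 and 231.6 CPM in itaconate libraries. These ranges overlapped, with a fold of 1.08 (0.9905 to 1.19; edgeR adjusted p 0.243), and Cdk6 passed in none of 18 alternative analyses. Cdk2, the partner of the E-type cyclins, was at 95.2 ± 3.42 and 94.8 ± 1.82 CPM (fold 0.997, 0.923 to 1.08). None of these 3 intervals reached beyond 1.19-fold.

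Ccne1, cyclin E1, which E2F factors induce, was at 123.4, 125.0 and 134.5 CPM in control libraries and 124.7, 126.5 and 140.6 CPM in itaconate libraries. The groups overlapped, with a fold of 1.02 (0.939 to 1.11; edgeR adjusted p 0.769). Its relative Ccne2, cyclin E2, was lower in level, at 42.7 ± 1.86 CPM in control libraries and 40.2 ± 1.499 CPM, and did not pass (adjusted p 0.408). Compared per length in TPM, Cdk6 was scarce beside Cdk4, making up 7.498% ± 1.102 of their sum in control and 7.63% ± 0.289 in itaconate libraries.

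None of the inhibitors passed the test. Cdkn1b was at 26.6, 29.3 and 26.8 CPM in control replicates 1, 2 and 3 and at 25.6, 25.5 and 24.5 CPM in the treated replicates 1, 2 and 3. The groups did not overlap, but the difference did not pass, with a fold of 0.915 (0.818 to 1.02; log2 fold change -0.13 ± 0.08, SE; edgeR adjusted p 0.304). Per 100 TPM of Cdk2 there were 23.6, 24.9 and 23.4 TPM of Cdkn1b in control and 22.1, 22.0 and 21.7 TPM in itaconate libraries. This ratio was lower in all 3 itaconate libraries, and the difference of the means was -2.06. The ratio has no test, and neither Cdkn1b nor Cdk2 passed. Among single genes, 31.2% of all tested had no overlap in CPM.

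The INK4 genes varied more among itaconate libraries than among controls. Cdkn2c was at 23.7, 24.9 and 25.1 CPM in control replicates 1, 2 and 3 and at 22.6, 27.5 and 20.7 CPM in the treated replicates 1, 2 and 3 (fold 0.960, 0.830 to 1.11). Cdkn2d was at 24.7, 25.9 and 25.8 CPM and at 22.0, 29.7 and 25.5 CPM (fold 1.01, 0.873 to 1.17). In CPM itaconate replicate 2 was the highest of all 6 libraries for both genes, and the groups overlapped. In TPM the highest library was control replicate 3 for Cdkn2c (18.1) and control replicate 2 for Cdkn2d (29.5). Together Cdkn2c and Cdkn2d reached 8.66 ± 0.668 TPM per 100 TPM of Cdk4 and Cdk6 in control and 7.59 ± 1.28 in itaconate libraries, with overlap.

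Other inhibitor genes were scarce or did not pass. Cdkn1a, the p53-induced inhibitor of CDKs, varied widely, at 48.5, 56.7 and 64.4 CPM in control libraries and 38.5, 58.7 and 51.7 CPM in itaconate libraries (edgeR adjusted p 0.598). Cdkn1c had rounded counts of 11, 1 and 9 in control and 4, 0 and 8 in itaconate libraries, Cdkn2a of 7, 2 and 8 and of 9, 2 and 4, and Cdkn2b of 4, 3 and 5 and of 0, 1 and 2. These 3 inhibitors were too scarce to be tested. Of the 6 listed genes of this kind outside the set of 10, 2 were tested (Ccne2 and Cdkn1a) and 0 passed by edgeR, by DESeq2 or by limma-voom, with 0 at an unadjusted p under 0.05.

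**Figure D4:**
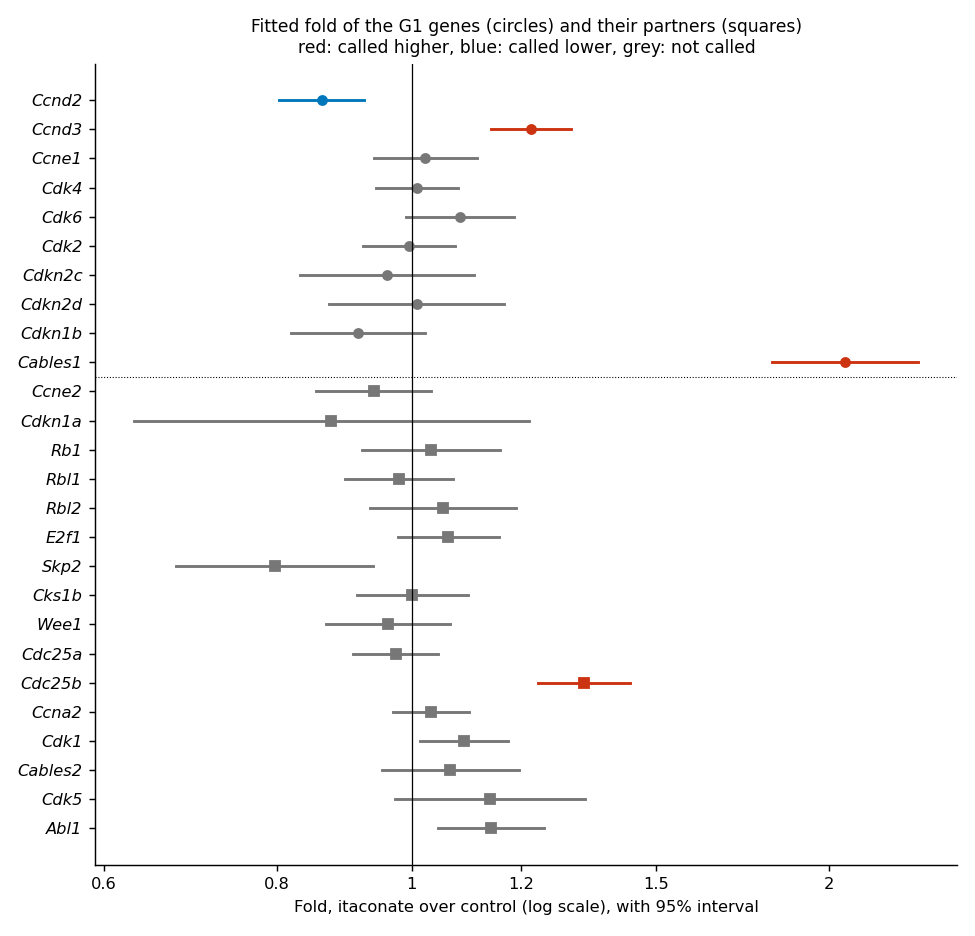
Fitted fold of itaconate over control (horizontal axis, log scale) with its 95% interval for the 10 genes (circles) and 16 partner genes (squares). Cables1 (2.05) and Ccnd3 (1.22) are called higher and Ccnd2 (0.861) lower, and of the partners drawn Cdc25b (1.33) is called higher. Cdc25b was named because it was called. Other genes named in that way, among them E2f2, E2f7, Fzr1 and Foxo3, are not drawn.

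Ordered by TPM in the control libraries, the genes ran Cdk4 (489 ± 51.4), Ccnd3 (270 ± 8.04), Ccnd2 (170 ± 18.1), Ccne1 (92.3 ± 1.26), Cdk2 (57.2 ± 2.42), Cdk6 (39.2 ± 2.44), Cdkn2d (28.3 ± 1.11), Cdkn2c (17.2 ± 0.95), Cdkn1b (13.7 ± 0.960) and Cables1 (11.3 ± 0.646). No neighbours in this order overlapped between libraries. In itaconate libraries Cables1, last in control, stood above Cdkn2c (15.02 ± 2.31 TPM) and Cdkn1b (11.9 ± 0.552 TPM), without overlap. It stood below Cdkn2d (26.5 ± 2.74 TPM), whose lowest library, 23.7 TPM, lay under the highest of Cables1, 24.3 TPM. TPM rests on the authors' estimate of which transcripts each library used.

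Targets and regulators of these kinases were examined by list, beside the 12.0% of all tested genes that were called. Of 18 genes of the retinoblastoma and E2F factors, 1 rose, 1 fell and 16 did not pass, with a median log2 fold change of -0.06. Rb1, the retinoblastoma gene, was at 39.0 ± 3.998 and 40.3 ± 1.31 CPM, and its relatives Rbl1 (fold 0.980, 0.896 to 1.07) and Rbl2 (1.05, 0.933 to 1.19) did not pass either. E2f1, an activator of S phase genes, was at 55.9 ± 1.245 and 59.4 ± 1.81 CPM (edgeR adjusted p 0.355). E2f2, another activator, increased from 83.4 ± 2.98 CPM to 96.8 ± 3.42 CPM (adjusted p 0.0180), and E2f7, a repressor, fell from 10.4 ± 0.62 to 7.45 ± 1.496 CPM (adjusted p 0.0409). Both calls were fragile. That of E2f2 was lost without control replicate 3 (0.0613) or itaconate replicate 2 (0.0542) or 3 (0.0948), and that of E2f7 without any 1 library other than itaconate replicate 1 (0.0534 to 0.166). Both were also lost when transcript lengths were modelled, at 0.0713 and 0.121.

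Of 8 kinases and phosphatases that act on CDKs, only Cdc25b passed. It encodes a phosphatase that removes the inhibitory phosphate from CDKs, chiefly before mitosis, and was at 70.5, 68.5 and 68.5 CPM in control libraries and 90.6, 92.2 and 93.4 CPM in itaconate libraries. The groups were far apart for their spread, with a fold of 1.33 (1.23 to 1.44; edgeR adjusted p 0.000185), and the call held without any 1 library, though not with limma on log2(TPM + 1) (adjusted p 0.0671). Cdc25a, the family member that acts on CDK2 in G1, did not pass, at 134 ± 4.04 and 130 ± 2.41 CPM.

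Of 13 tested genes for ubiquitin ligases that degrade G1 cyclins and inhibitors, 2 rose, 1 fell and 10 did not pass, with a median of 0.02. Fzr1, which directs the anaphase-promoting complex in G1, was higher with itaconate (109 ± 3.46 CPM in control, 129 ± 7.47 CPM in itaconate libraries; edgeR adjusted p 0.00944), as was Fbxo31, an F-box protein gene (31.9 ± 1.27 and 39.1 ± 2.33 CPM; 0.0148). Cul4b, a cullin scaffold, fell from 70.5 ± 1.62 to 60.2 ± 2.15 CPM (0.0177). All 3 calls were lost without control replicate 2 (0.0547 to 0.0581) or itaconate replicate 2 (0.0517 to 0.0808), that of Fbxo31 also without itaconate replicate 3 (0.0772), and all 3 when transcript lengths were modelled. Skp2, the F-box protein that marks KIP1 for degradation, was at 24.1, 20.955 and 20.7 CPM in control libraries and 20.6, 15.97 and 15.9 CPM in itaconate libraries. It did not pass (fold 0.797, 0.677 to 0.939, edgeR adjusted p 0.0679). Skp2 passed in 3 of 18 alternative analyses. These were without itaconate replicate 1 (0.0146), with the replicate number as a block (0.0087) and with no filter on low counts (0.0119). Cks1b, the cofactor of Skp2, was level, at 113 ± 6.94 and 113 ± 7.89 CPM.

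Further along the cycle, 0 of 6 genes for cyclins and CDKs of S phase and mitosis passed the edgeR test, and DESeq2 and limma-voom also called 0. An unadjusted edgeR p under 0.05 was found for 3 of the 6. At least 12.0% of all tested genes, those called, had such a p. The full share was not computed, so these counts have no complete background. Ccna2, cyclin A2, was at 286 ± 3.94 and 295 ± 4.14 CPM (edgeR adjusted p 0.528), and Cdk1, the mitotic kinase, at 128 ± 5.63 and 140 ± 1.096 CPM (0.114). Of 30 replication genes that E2F factors induce, 4 fell, none rose and 26 did not pass, with a median log2 fold change of -0.05. An unadjusted p under 0.05 in edgeR was found for 12 of the 30, again beside at least 12.0% of all tested genes. DESeq2 called 5 of the 30 and limma-voom 4, beside 1438 and 1423 of all tested genes. Control and itaconate CPM did not overlap for 16 of the 30, beside 31.2% of all tested genes. Of these 16, Cdt1, Tk1 and Gins2 were higher with itaconate and the rest lower. Mcm3, a subunit of the replicative helicase, fell from 601 ± 14.9 to 531 ± 9.31 CPM (edgeR adjusted p 0.0173). Its call was lost without itaconate replicate 2 (0.0711) or 3 (0.0689), and when transcript lengths were modelled (0.209).

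Of 16 upstream regulators of G1 entry, 1 fell and 15 did not pass. Foxo3, a forkhead factor that can induce Cdkn1b, fell from 47.4 ± 0.809 to 39.4 ± 0.834 CPM (edgeR adjusted p 0.0101, and 0.0515 without itaconate replicate 3). Its relative Foxo1 was at 90.5 ± 7.93 and 104 ± 4.26 CPM (edgeR adjusted p 0.0556). Foxo1 passed in 3 of 18 alternative analyses. These were without control replicate 1 (0.0102), with the replicate number as a block (0.00919) and with no filter on low counts (0.0109). Foxo3 also did not pass when transcript lengths were modelled.

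**Figure D5:**
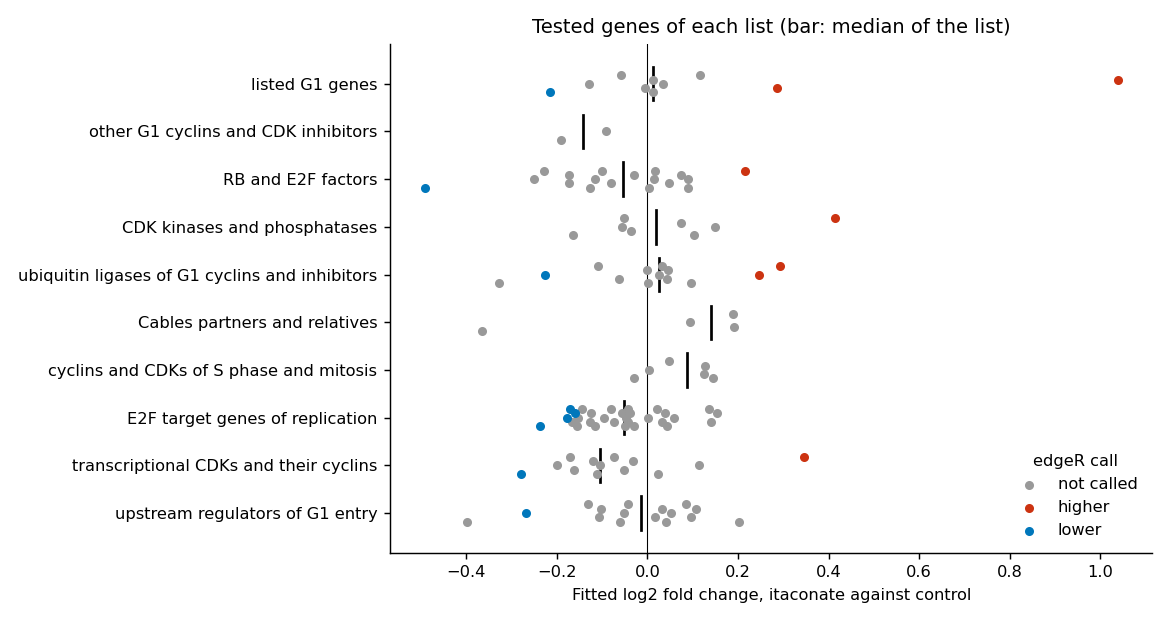
Fitted log2 fold changes (horizontal axis) of the tested genes of each list, with the list's median as a bar; red and blue points are called higher and lower by edgeR, grey points are not called. Medians of the 10 gene lists lie between -0.14 and 0.14, and Cables1 at 1.04 is the farthest from 0 of all genes shown.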

How the data were processed

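The authors deposited gene-level expected counts and TPM values, in RSEM's format per the file headers. Bowtie 0.12.2 and the builds mm8 and mm10 appear in the submitters' processing notes. RSEM's version, the annotation and the strand setting were not given in the sources used here. The transcript and effective lengths are the authors' estimates in bases. Between 5.99% and 6.93% of all 55487 listed genes per library were not whole within 0.001. This share includes genes with a count of 0, and only 16413 to 18433 genes per library were above 0. The share among those genes is therefore larger. Expected counts were rounded before testing.

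All 6 libraries entered 1 fit of itaconate against control in edgeR 4.0.16 (R 4.3.3; quasi-likelihood test, two-sided, robust, TMM factors from 0.9866 to 1.0172, expression filter with minimum count 10 and minimum total 15). Adjusted p-values are Benjamini-Hochberg over 12350 genes, called under 0.05. Fold intervals of 95% use the fitted standard error and the test's degrees of freedom. CPM are TMM-scaled. Shares and ratios of TPM have no test. limma 3.58.1 and DESeq2 1.42.0 served as alternatives. In simulated counts (common dispersion 0.0052, 12236 genes tested) the test recovered 42% of 1.25-fold, 80% of 1.5-fold, 92% of 2-fold and 98% of 4-fold changes, and 4.29% of its calls were false. Chi-square values per gene between replicates were 4.93 to 16.5, so no library was a copy. GENCODE M21 (GRCm38) held 99.83% of identifiers and gave positions. The genes and lists were chosen with earlier results of these data known, and the promoter motifs after the sequences were seen. Named genes are the 10, 20 fixed by name, up to 2 risers and 2 fallers per list, and 5 nearest profiles; Bysl, Tspan31, Gm6277 and Gm43126 were added as overlapping genes, and marker genes after their values were seen. Of the genes that the rule names, 1 is not reported here. The symbols Skp1, Cdk3-ps, Trgc1 and Trgc2 matched no row.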

Additional observations from a re-analysis of the deposited data

How the results depend on the processing

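Among the 42 named genes tested, no call changed direction under the 18 alternatives. In 756 pairs of gene and alternative, 94 calls were lost and 10 gained, and in 45 pairs with no call on either side the sign changed. The number of changed genes, 1487, was 319 with limma on log2(TPM + 1), 305 on log2(TPM + 0.1) and 134 on log2(TPM + 1) without a variance trend, an alternative chosen after seeing the data. It was 567 with an effective length offset and 726 to 1400 when 1 library was left out. Of the 10 genes, 3 were called, against 1 (Cables1) in each of the limma analyses of TPM, 2 with an effective length offset, and 2 or 3 when 1 library was left out. The cause was not tested. With the replicate number as a block, 2419 genes were called, and 598 with the block and an effective length offset; of the 10 genes 3 and 2 were called. Same-numbered libraries deviated together only weakly (correlations 0.113, 0.0305 and 0.00337), and not every sample correlated best with its own number. Being deviations from means of 3 libraries, these values cannot tell whether same-numbered libraries shared an animal or a batch. Cdk6 as a share of Cdk4 and Cdk6 differed by 0.134 percentage points in TPM and 1.64 in CPM. Changes of 1.25-fold were often missed in simulation, where all genes had the same dispersion and the changed genes were drawn at random. The simulation gave 163 calls, against 1487 in the data, so its recovery may differ from that for the 10 genes.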

Other observations

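Of 13 tested genes for CDKs that act on transcription rather than on the cell cycle, and for their cyclins, 1 rose, 1 fell and 11 did not pass, beside 12.0% called among all tested genes, with a median log2 fold change of -0.10. Cdk10 rose from 17.0 ± 1.14 to 21.7 ± 1.30 CPM (SD, n = 3; edgeR adjusted p 0.0221), and Cdk12, which phosphorylates RNA polymerase II, fell from 71.3 ± 7.46 to 58.7 ± 3.29 CPM (0.0293). The Cdk10 call was lost without control replicate 1 (0.0552) or 2 (0.107) or itaconate replicate 1 (0.0782) or 2 (0.0526). That of Cdk12 was lost without control replicate 1 (0.0921) or 2 (0.121) or itaconate replicate 2 (0.119) or 3 (0.116). Both calls were also lost with an effective length offset (0.0531 and 0.0933).

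The estimated transcript length of Cdkn2d was 1347 to 1379 bases in control and 1380 to 1423 bases in itaconate libraries, the only one of the 10 genes for which the lengths of the groups did not overlap. Gm43126, annotated as antisense to Ccnd2, had expected counts of 0, 69.8 and 107 in control replicates 1, 2 and 3 and of 56.7, 119 and 116 in the treated replicates 1, 2 and 3, beside 9940 to 20500 counts of Ccnd2 per library.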
